A study of Mus musculus with 8 samples.

Results

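The miR-290-295 cluster is a group of microRNA (miRNA) hairpins on mouse chromosome 7, and its levels were read from counts of annotated small RNAs in stem cells and fibroblasts. Its members were taken by name, as every row on chromosome 7 for a mouse miRNA numbered 290 to 295 with any letter suffix. This gave 9 rows out of the 5518 in each count table. Of these, 7 were separate, after 1 row was kept of each overlapping pair with the same counts. A further 7 rows of the same names stand on an alternative sequence of the locus outside the chromosome, and they had 0 counts in all 8 libraries.

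Libraries of 3 kinds were set side by side. Mouse embryonic stem (MES) cells were untreated, grown without feeder cells in medium with leukemia inhibitory factor, and sequenced by TEsR in 2 libraries, MES 1 and MES 2; no strain or genotype is stated for them. Mouse embryonic fibroblasts (MEFs) were sequenced by TEsR in 4 libraries and, with the standard TruSeq small RNA protocol and a HiSeq, in 2. All MEFs carried a conditional knockout allele of TRF2, a protein of the telomere cap, with a tamoxifen-activated Cre expressed from Rosa26. Induction was with 4-hydroxytamoxifen at 0.6 µM for 48 hours. By their titles 2 of the TEsR samples of MEFs were induced and 2 uninduced, and both TruSeq samples were induced. TEsR ligates linkers to whole small RNAs, amplifies them, captures them on hybridisation probes without size selection and reads them on a MiSeq. The 4 TEsR libraries of MEFs are known by unexplained codes (MEFmmS1, MEFmmS2, MEFpmS1 and MEFpmS2), so induced and uninduced libraries cannot be told apart, and the spread of this group holds both states.

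miRNAs are cut from hairpins into a strand from the 5′ arm and a strand from the 3′ arm, and bases 2 to 8 of the loaded strand, the seed, pair with target mRNAs. The miR-290-295 hairpins are made from a single primary transcript and are known as the most abundant miRNAs of mouse embryonic stem cells, where members with the AAGUGC core promote the rapid cell cycle of these cells. The transcript is silenced as cells differentiate, and let-7 miRNAs, which mark differentiated cells, act against the programme that the cluster supports.

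The mature sequences show how the members are related. They come from RefSeq (GRCm38.p6), where all 9 rows matched a hairpin entry, with 17 mature sequences between them. Each is printed 5′ to 3′ with the seed in capitals. The 3′ strands are shown because they carry the family seed:
mmu-miR-290a-3p: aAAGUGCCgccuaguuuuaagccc
mmu-miR-291a-3p: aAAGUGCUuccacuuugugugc
mmu-miR-291b-3p: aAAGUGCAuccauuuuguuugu
mmu-miR-293-3p: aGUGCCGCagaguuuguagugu
mmu-miR-294-3p: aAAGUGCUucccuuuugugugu
mmu-miR-295-3p: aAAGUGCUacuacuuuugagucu
Bases 2 to 7 were AAGUGC in 5 of these 6 sequences, and mmu-miR-293-3p was the exception among them. They do not include mmu-miR-292a-3p, so tallies and shares by 3′ seed leave out the leading hairpin, Mir292. The whole seed AAGUGCU was shared by the 3′ strands of Mir291a, Mir294 and Mir295. Over the whole strand, seed included, the 3′ strands of Mir291a and Mir294 matched at 19 of 22 positions, with the first difference at position 12. Those of Mir291a and Mir295 matched at 15 positions, and those of Mir294 and Mir295 at 12.

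The 5′ strands are shown because they form other groups of members:
mmu-miR-290a-5p: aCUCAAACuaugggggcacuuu
mmu-miR-292a-5p: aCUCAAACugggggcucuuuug
mmu-miR-293-5p: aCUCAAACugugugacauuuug
mmu-miR-291a-5p: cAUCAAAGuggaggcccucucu
mmu-miR-291b-5p: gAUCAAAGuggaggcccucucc
The first 3 share the seed CUCAAAC and the last 2 the seed AUCAAAG. The 5′ strands of Mir291a and Mir291b were identical at 20 of 22 positions and differed only at the first and the last base, so how reads of this strand were split between the 2 rows is uncertain. A row's count covers the whole hairpin, so counts of the 5′ and 3′ strands of a row cannot be told apart here.

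On mm10, the 9 rows lie at chr7:3218626-3220841, a span of 2216 bases. The annotation (GENCODE vM21) types all of them as miRNA and places them at the same coordinates as the count tables. Along the plus strand stand Mir290a (83 bases), Mir291a (82), Mir292 (82), Mir291b (79), Mir293 (80), Mir294 (84) and Mir295 (69). The gaps between neighbours are 210, 188, 211, 782, 218 and 48 bases, so that a stretch of 782 bases parts the first 4 hairpins from the last 3. The other 2 rows, mmu-mir-290b and mmu-mir-292b, lie on the minus strand inside Mir290a and Mir292. The hairpins of the first such pair are printed because the count tables give both the same numbers, with the bases of Mir290a that mmu-mir-290b covers in capitals:
Mir290a, chr7:3218626-3218708, plus strand: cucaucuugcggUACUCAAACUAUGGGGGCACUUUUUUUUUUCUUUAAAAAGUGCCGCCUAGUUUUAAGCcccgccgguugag
mmu-mir-290b, chr7:3218638-3218695, minus strand: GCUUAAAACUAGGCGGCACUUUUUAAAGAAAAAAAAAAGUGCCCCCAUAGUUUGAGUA
Counts of mmu-mir-290b equalled those of Mir290a, and counts of mmu-mir-292b equalled those of Mir292, in all 8 libraries. Over the whole table, 17 of 20 pairs of miRNA rows that overlap on opposite strands and have a count had identical counts in every library. TEsR linkers keep the strand, per the labels' protocols, but whether the counting used it is not stated. Sense and antisense RNA of these hairpins therefore cannot be told apart, and each such pair is counted once, under Mir290a and Mir292.

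The libraries differed in depth and in the share of miRNAs. Total counts over annotated small RNAs were 2785150 and 2676776 in MES, 3221641 to 3768668 in MEFs by TEsR, and 8961221 and 8442960 in MEFs by TruSeq. Rows typed miRNA that share no position with a snoRNA or rRNA row were used as miRNA rows, each duplicate pair standing once. One such row, AC161199.1, is named Snord43 in the annotation and held most of the TruSeq counts of the type. Without it, miRNA rows took 0.242% of all counts in both MES libraries, 1.52% to 7.39% in MEFs by TEsR, and 0.0603% and 0.0399% in MEFs by TruSeq. MES and MEF libraries by TEsR thus differ in what share of the sequencing miRNAs received, and results are given both per all counts and per miRNA count. Separate cultures are not recorded for the libraries within a group, and a p-value therefore reads the spread between libraries, which may be technical. In bulk RNA, fewer cells with the cluster and less of it per cell cannot be told apart.

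In MES cells all 7 hairpins were counted, and they were unequal. By counts Mir292 led, and Mir290a and Mir291b were the lowest. Mir291a and Mir295 came next after Mir292, with Mir291a ahead in MES 1 and Mir295 in MES 2. In MEFs the cluster was at or near 0: of 6 MEF libraries, 1 had any count of it, and that library had 5.

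Mir292 had 529 counts in MES 1 and 594 in MES 2, against 0, 3, 0 and 0 in MEFmmS1, MEFmmS2, MEFpmS1 and MEFpmS2 and 0 in both TruSeq libraries. Mir295 had 267 and 257 in MES, against 0, 2, 0 and 0 in the same 4 MEF libraries by TEsR and 0 in both by TruSeq. For both hairpins every MES library lay far above every MEF library, and the only MEF counts were those of MEFmmS2. Mir291a, the first hairpin with the AAGUGCU seed, had 284 and 245 counts in MES and 0 in all 6 MEF libraries. Mir294, another hairpin with this seed, had 92 and 97 in MES and 0 in all 6 MEF libraries. Mir293, whose 3′ strand lacks the family core, had 48 and 44 in MES and 0 in all 6. The lowest 2 hairpins still had counts in both MES libraries and in none of the 6 MEF libraries: Mir291b had 25 and 29, and Mir290a, at the 5′ end of the cluster, had 15 and 32.

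**Figure D1:**
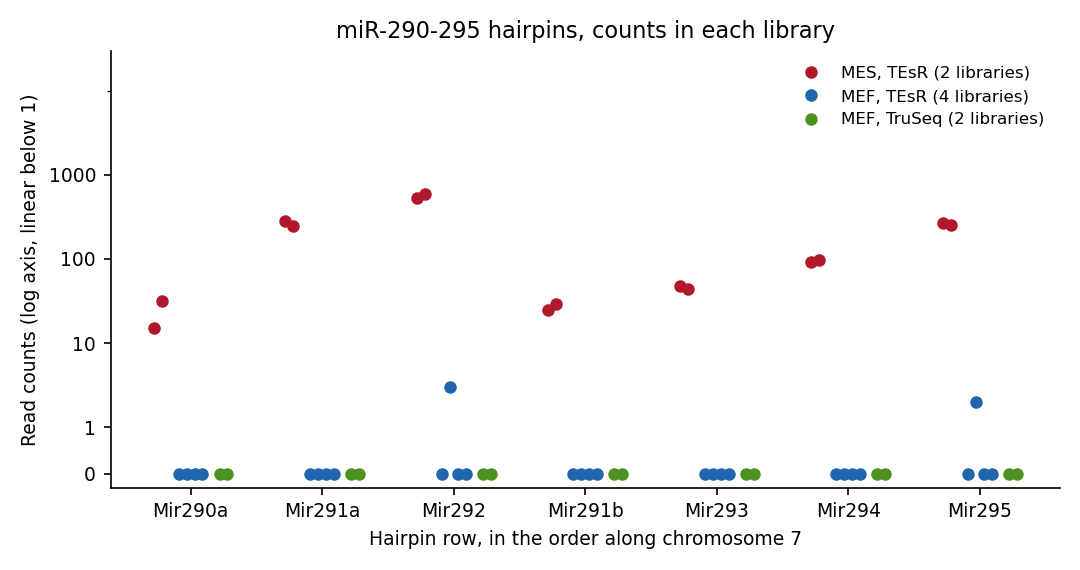
Read counts of each of the 7 separate hairpin rows (x axis, in order along the chromosome) in each library, with 2 MES libraries by TEsR (red), 4 MEF libraries by TEsR (blue) and 2 MEF libraries by TruSeq (green); the y axis is logarithmic above 1 and linear below. MES libraries lie between 15 and 594 counts, and the only MEF points above 0 are the 3 counts of Mir292 and the 2 of Mir295 in MEFmmS2.

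Levels of hairpins of different length were compared as counts scaled to a common library total (CPM) per 100 bases of the row. On this scale the MES levels were 251 ± 27.6 for Mir292, 139 ± 0.149 for Mir295, 118 ± 9.0 for Mir291a, 41.2 ± 2.7 for Mir294, 21.0 ± 0.704 for Mir293, 12.5 ± 1.66 for Mir291b and 10.4 ± 5.60 for Mir290a (SD, n = 2 each). The highest level was 24.0 times the lowest. Neighbours in this order stood apart in both MES libraries, by non-overlapping 95% counting intervals, between Mir292 and Mir295 (a ratio of 1.81), between Mir291a and Mir294 (2.86) and between Mir294 and Mir293 (1.96). The counting intervals overlapped in both libraries for Mir295 and Mir291a, for Mir293 and Mir291b, and for Mir291b and Mir290a. The last pair also changed places, with Mir291b above Mir290a in 1 of the 2 libraries.

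Levels did not run in one direction along the chromosome. The first and the fourth hairpin, Mir290a and Mir291b, were the lowest, and the highest, Mir292, lies between Mir291a and Mir291b. After the gap of 782 bases, the level per 100 bases stood at 21.0 CPM for Mir293, 41.2 for Mir294 and 139 for Mir295.

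**Figure D2:**
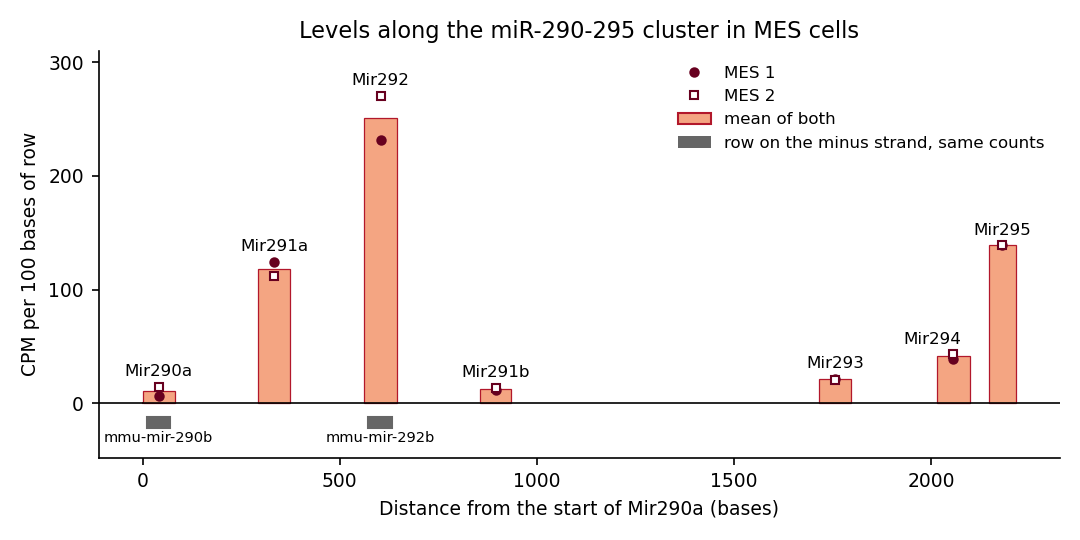
Level of each hairpin in MES cells as CPM per 100 bases of row (y axis) against its distance in bases from the start of Mir290a (x axis); bars span the hairpin and show the mean, and the circle and the square show MES 1 and MES 2. Grey blocks below the axis mark the 2 minus-strand rows with the same counts as the hairpin above them, and the tallest bar is Mir292 at 251.

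The same hairpins led the cluster in both MES libraries. Mir292 held 42.0% of the cluster's counts in MES 1 (95% interval 39.2 to 44.8, exact Clopper-Pearson) and 45.8% in MES 2 (43.0 to 48.5). Mir291a held 22.5% (20.3 to 24.9) and 18.9% (16.8 to 21.1), and Mir295 held 21.2% (19.0 to 23.6) and 19.8% (17.7 to 22.1). Together with Mir294, at 7.30% and 7.47%, these hairpins made up most of the cluster. The rest were Mir293 at 3.81% and 3.39%, Mir291b at 1.98% and 2.23%, and Mir290a at 1.19% and 2.47%. Between MES 1 and MES 2 the 7 counts differed by a chi-square of 13.0 on 6 degrees of freedom (p = 0.0428), slightly beyond sampling noise. No single hairpin's share differed between the libraries after adjustment over the 7 (Fisher's exact test, two-sided), and the lowest adjusted p was 0.0863, for both Mir290a and Mir291a. Molecular identifiers were not used, and every interval or limit covers counting error alone.

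**Figure D3:**
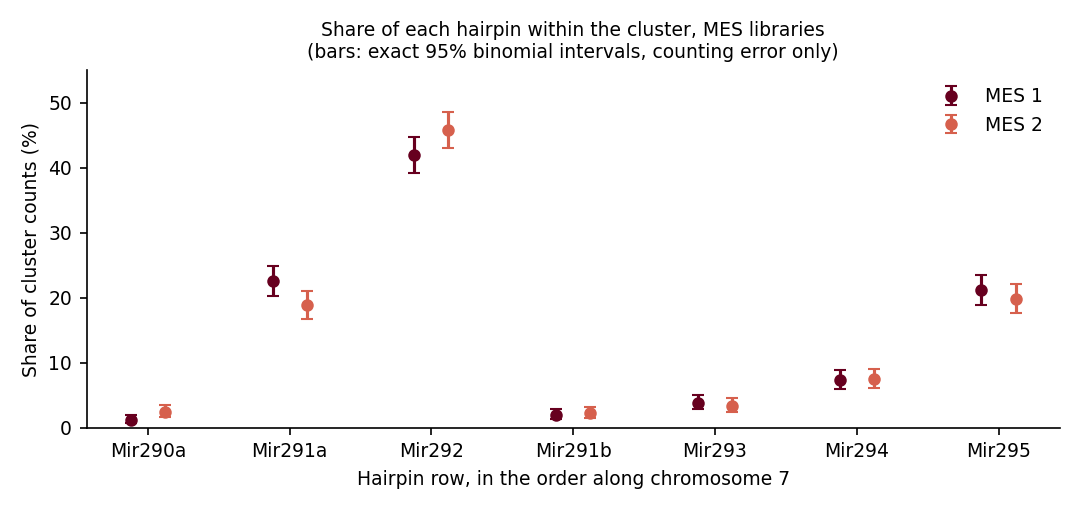
Share of each hairpin in the cluster's counts (y axis, percent) in MES 1 (dark) and MES 2 (light), with exact 95% binomial intervals that cover counting error only. Mir292 has the highest share in both libraries, and Mir291a and Mir295 overlap each other at about the same level.

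Rows were also summed by the seed of the strands printed. Rows with an AAGUGCU 3′ strand (Mir291a, Mir294 and Mir295) held 51.0% of the cluster's counts in MES 1 and 46.1% in MES 2. Rows with a CUCAAAC 5′ strand (Mir290a, Mir292 and Mir293) held 47.0% and 51.6%. The 2 rows with an AUCAAAG 5′ strand, Mir291a and Mir291b, held 24.5% and 21.1%. Because a row counts both arms, these are shares of hairpins that can give the seed, not of strands with it, and Mir291a stands in 2 of the groups.

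Summed over its 7 separate rows, the cluster had 1260 and 1298 counts in MES, against 0, 5, 0 and 0 in MEFmmS1, MEFmmS2, MEFpmS1 and MEFpmS2 and 0 in both TruSeq libraries. As a share of all counts this was 452 and 485 CPM in MES (469 ± 23.0, SD, n = 2) and 1.33 CPM in MEFmmS2. A count of 0 allows up to 0.804, 0.848 and 0.931 CPM in the other MEF libraries by TEsR, and up to 0.335 and 0.355 CPM in the TruSeq libraries, with a limit of 3 counts per library. Of the counts on miRNA rows, the cluster took 17.6% in MES 1 (16.8 to 18.5) and 18.8% in MES 2 (17.9 to 19.8), a mean of 18.2% ± 0.859 (SD, n = 2). Leaving AC161199.1 out of the miRNA rows, which was decided once the data had been seen, gave 18.7% in MES 1 and 20.0% in MES 2. The share was 0.00874% in MEFmmS2 without that row, and the limits in the other MEF libraries by TEsR were 0.00115% to 0.00196%. In the TruSeq libraries the limits were 0.000156% and 0.000146% with AC161199.1 and 0.0555% and 0.0891% without it.

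Within the miRNAs of MES cells the cluster held several of the leading places, but it was not the most counted group. The 15 rows of the miR-17-92 family and its paralogous clusters held 47.0% of miRNA counts without AC161199.1 in MES 1 and 45.2% in MES 2. On the same scale the cluster held 18.7% and 20.0%. Mir106b, a row of that family, had 1916 and 1787 counts, against 1260 and 1298 for the whole cluster. Ranked by counts, Mir292 was 3rd in MES 1 and 2nd in MES 2 of 158 and 162 miRNA rows with a count. Mir291a was 5th and 6th, Mir295 6th and 5th, and Mir294 13th and 14th. Mir293 ranked 25th and 26th, Mir291b 39th and 36th, and Mir290a 45th and 34th.

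The comparison of MES cells with MEFs by the same method reads the cell types, and genotype, culture medium and treatment differ with cell type, so that their parts cannot be told apart. On counts pooled over the libraries of a group, Mir292 was 977-fold higher in MES per all counts (95% counting interval 333 to 4745) and Mir295 684-fold (188 to 5662). The other hairpins had no MEF count and were higher by at least 460-fold for Mir291a, 164-fold for Mir294, 80.0-fold for Mir293, 47.0-fold for Mir291b and 40.9-fold for Mir290a, against a limit of 3 counts over the 4 MEF libraries. The whole cluster was 1335-fold higher (571 to 4116), at 2558 pooled counts in MES and 5 in MEFs. All 5 MEF counts were those of MEFmmS2. Without that library, which was tried after seeing the data, the levels in MES were higher, against 3 counts over the other 3 libraries, by at least 719-fold for Mir292, 335-fold for Mir295 and 1637-fold for the cluster. The fitted log2 fold changes, which depend on the prior count at 0, went to 12.95 for Mir292 and 11.85 for Mir295 without it, against 10.45 and 9.82 with it. Per miRNA count, without AC161199.1, it was 26335-fold higher (11270 to 81174), since miRNA rows took a larger share of the MEF libraries.

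By edgeR's quasi-likelihood test over all rows with Benjamini-Hochberg adjustment, 43.6% of the 273 tested rows were higher in MES and 31.5% were lower, at an adjusted p under 0.05. Every cluster row entered this test through its MES counts alone, so their calls are given one by one and no weight is put on their number. The edgeR adjusted p was 2.05e-06 for Mir292, 2.25e-06 for Mir295, 5.11e-06 for Mir291a, 1.11e-05 for Mir294, 4.61e-05 for Mir293, 0.000143 for Mir291b and 0.000253 for Mir290a. Each was higher in 2 of 2 MES libraries than in any of the 4 MEF libraries. Among tested miRNA rows, 109 after removal of duplicates, 20 were higher and 61 lower in MES. The median log2 fold change of the 273 tested rows was 0.45. In a fit of miRNA rows alone, with its own scaling and rows, 42 were higher and 35 lower of 136, at a median log2 fold change of 0.05. Scaling on the miRNA rows themselves tends to even out a lean they share. That fit therefore cannot tell whether miRNAs lean towards lower in MES.

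**Figure D4:**
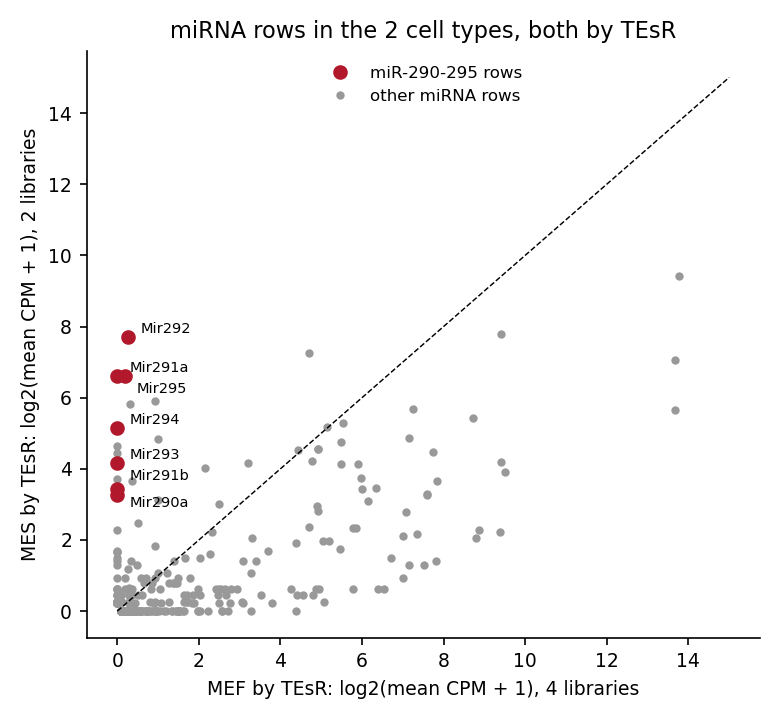
Mean level of 300 miRNA rows with a TEsR count in MES (y axis, 2 libraries) and in MEFs (x axis, 4 libraries), both as log2(mean CPM + 1); the dashed line marks equal levels. The 7 cluster rows (red) lie along the left edge, at or near 0 in MEFs, whereas most other rows (grey) with high MEF levels lie below the line.

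None of the 7 hairpins had a count in MEFs by TruSeq. In this comparison cell type, genotype, medium, treatment, method, instrument and depth all change together. Per all counts the MES level was at least 1193-fold higher for Mir292, 562-fold for Mir291a, 557-fold for Mir295, 201-fold for Mir294, 97.7-fold for Mir293, 57.4-fold for Mir291b and 49.9-fold for Mir290a, against 3 counts over both libraries. For the cluster the bound was 2717-fold per all counts and 566-fold per miRNA count without AC161199.1, because the TruSeq libraries held few miRNA counts. The edgeR adjusted p ran from 5.8e-07 for Mir292 to 0.000111 for Mir290a, with 36.6% of the 352 tested rows called higher and 50.0% lower. Scaled by library size alone, this split was 101 higher and 219 lower. A fit of miRNA rows alone, which changes both the rows and the scaling, gave 51 higher and 34 lower of 103. Both comparisons share the MES libraries.

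The related miR-302-367 cluster, a second cluster of pluripotent cells, followed the same pattern at a lower level. Its 5 rows summed to 63 and 85 counts in MES and to 0 in all 6 MEF libraries. Mir302a had 47 and 65 counts in MES and Mir302b 10 and 11, with edgeR adjusted p of 3.49e-05 and 0.00081 against MEFs by TEsR. Only these 2 rows of the list passed the filter, through their MES counts alone, so their being called higher, as were 43.6% of all tested rows, carries no weight as a count. Outside the miR-290-295 cluster, the mature sequences used here, which are not complete, gave the AAGUGCU seed to Mir302b and Mir302d, and these summed to 11 and 13 counts in MES. No mature sequence used here from outside the cluster carried CUCAAAC, and the seed of mmu-miR-291b-3p was shared with Mir350.

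The miR-17-92 family, with its paralogous clusters, is known for driving cell proliferation. Against MEFs by TEsR, 10 of the 15 rows were tested, and 3 were higher and 3 lower in MES, with a median log2 fold change of -0.07 beside 0.45 for all tested rows. These shares lie near or below those of all tested rows, 43.6% higher and 31.5% lower. Mir20b and Mir106a, 2 of the 3 rows called higher, passed the filter through their MES counts alone, so the count of higher rows carries no weight. Library size alone gave 2 higher and 5 lower, and a fit of miRNA rows alone, which changes the rows as well as the scaling, gave 8 higher and 1 lower of 11. Mir20b, with 73 and 57 counts in MES and 0 in all 6 MEF libraries, and Mir106a, with 28 and 38 and likewise 0, were higher (edgeR adjusted p = 2.25e-05 and 0.0001). Mir93 was higher, at a log2 difference of 1.93 (SE 0.60, edgeR adjusted p = 0.0136), which ended with library size only (adjusted p = 0.201), without MES 1 (0.0673) and without MES 2 (0.0893), over a range of 4.75e-05 to 0.201. Mir106b, the most counted of the list, had 1916 and 1787 counts in MES against 18526 to 77721 in MEFs by TEsR, and was lower, at a log2 difference of -3.50 (SE 0.50, edgeR adjusted p = 0.000115). By TruSeq, Mir106b had 40 and 45 counts in MEFs, and MES was higher, at a log2 difference of 8.47 (SE 0.23, edgeR adjusted p = 5.51e-08), so the 2 comparisons, which share the MES libraries, called this row in opposite directions. The adjusted p of Mir106b against MEFs by TEsR was at most 0.00383 over the 12 alternatives. The shift by TruSeq was not particular to Mir106b. Of 11 rows of the list tested there, 9 were higher and 2 lower in MES, at a median log2 fold change of 7.65. Of all rows tested there, 36.6% were higher and 50.0% lower. Most of the 9 passed the filter through their MES counts alone, so this count carries no weight.

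The let-7 family stood opposite to the cluster. Its 11 rows summed to 8 and 3 counts in MES, against 318 to 925 in MEFs by TEsR and 235 and 229 in MEFs by TruSeq. These sums leave out mmu-let-7e, whose counts equal those of Gm25927 on the opposite strand. Gm25927 had a mean of 0.180 CPM in MES and 1.11 CPM in MEFs by TEsR. Per all counts the 11 rows held 2.87 and 1.12 CPM in MES, against 84.4 to 248 CPM in MEFs by TEsR. Of miRNA counts without AC161199.1 they held 0.119% and 0.0463% in MES and 0.257% to 0.556% in MEFs by TEsR. The gap was thus smaller per miRNA count. By TruSeq this share was 4.35% and 6.80% in MEFs. Of 3 rows tested against MEFs by TEsR, 3 were lower in MES and 0 higher, with a median log2 fold change of -4.87, beside 31.5% of all tested rows lower. They passed the filter through their MEF counts alone, so this count carries no weight. Against MEFs by TruSeq, 4 of 6 tested rows were lower and 0 higher, beside 50.0% of all tested rows lower, and Mirlet7i was not called (edgeR adjusted p = 0.0737). These 6 rows also passed the filter through their MEF counts alone, so this count carries no weight either. Mirlet7i had 3 and 2 counts in MES against 233 to 709 in MEFs by TEsR (a log2 difference of -6.23, SE 0.68, edgeR adjusted p = 1.71e-05). Mirlet7g had 2 and 1 in MES against 55 to 160 (-4.87, SE 0.71, edgeR adjusted p = 0.000118). The third, Mirlet7b, was called at an edgeR adjusted p of 0.0386, which was lost with DESeq2 (0.0576), with miRNA rows scaled alone (0.327), without MES 1 (0.0734) and without MES 2 (0.245), over a range of 0.0102 to 0.327. Several let-7 miRNAs have more than 1 gene copy, and how shared reads were counted is not stated.

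Marker lists were set beside the labelled cell types. The list for fibroblasts and mesenchyme held 5.71% and 6.08% of the miRNA counts without AC161199.1 in MES, 26.5% to 33.0% in MEFs by TEsR, and 15.2% and 13.7% in MEFs by TruSeq. All 7 of its rows tested against MEFs by TEsR were lower in MES, at a median log2 fold change of -6.24, beside 31.5% of all tested rows. Of these, Mir145a, Mir22, Mir222, Mir214 and Mir143 passed the filter through their MEF counts alone, so this count carries no weight. Against MEFs by TruSeq, 2 of 5 were lower and 2, Mir21a and Mir221, were higher, beside 50.0% and 36.6% of all tested rows. There Mir199a-2 and Mir143 passed the filter through MEFs alone and Mir221 through MES alone, so these counts carry no weight either. The MES counts of this list were mostly those of Mir21a, at 350 and 370, which many cell types express, against 17008 to 69764 in MEFs by TEsR. Mir145a had 0 counts in MES against 30 to 130 in MEFs by TEsR. Mir199a-1, Mir199a-2, Mir199b and Mir10b also had 0 counts in MES, but at most 8 in any MEF library by TEsR. Of the list for trophoblast and placenta, Mir467c had 41 and 43 counts in MES against 1 to 28 in MEFs by TEsR, and Mir322 had 4 and 5 against 380 to 1198. Neural markers had 0 counts in every library and muscle markers at most 17. The 4 blood markers summed had 7 and 1 counts in MES, all on Mir150, and 0 in MEFs. That sum leaves out the blood marker mmu-mir-142a, whose counts equal those of Mir142b on the opposite strand. Mir142b had a mean of 0.919 CPM in MES and 0 in MEFs by TEsR.

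**Figure D5:**
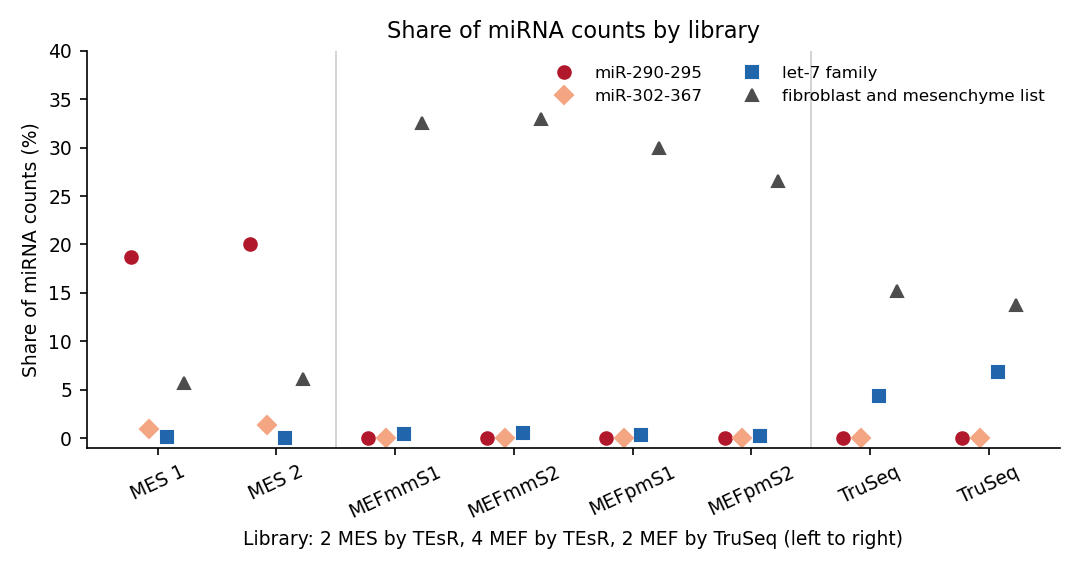
Share of miRNA counts without AC161199.1 (y axis, percent) of the miR-290-295 cluster, the miR-302-367 cluster, the let-7 family and the fibroblast and mesenchyme list in each library (x axis; 2 MES by TEsR, 4 MEF by TEsR, 2 MEF by TruSeq). The miR-290-295 cluster is at 18.7% and 20.0% in MES and at or near 0 in the 6 MEF libraries, where the fibroblast list is higher than in MES.

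The rows whose levels moved most like the cluster over the 8 libraries were sought among the 32 other miRNA rows whose MES mean reached 10 CPM. Likeness was the Pearson correlation of log2(CPM + 1) with the summed cluster, a description over libraries that share groups and depth. Mir20b came first (r = 0.994), then Mir302a (0.993), Mir106a (0.993), Mir205 (0.984) and Mir708 (0.966). Mir205 had 157 and 146 counts in MES, and 3 in MEFpmS2 with 0 in the other MEF libraries. Mir708 had 39 and 25 in MES, 3 in MEFpmS1, 1 in MEFpmS2, 1 in the TruSeq library with the index ATCACG, and 0 elsewhere. None of these 5 rows had a count in MEFmmS2, the MEF library in which the cluster was counted. That rests on where the list was cut. The next rows, Mir200c (r = 0.966) and Mir672 (0.964), had 3 counts and 1 count there.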

How the data were processed

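The authors deposited raw read counts for each annotated small RNA, without normalization, in 2 tables that list the same 5518 rows. The submitters' processing notes name the mm10 build and the tools bedtools 2.25.0, SAMtools 1.2.1, BWA 0.7.12 and cutadapt. What each tool did, with which settings, and whether strand was used in counting is not given in the sources used here.

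Columns were assigned by name. The TEsR column names carry a tag of unstated meaning that the TruSeq names lack, so whether reads were filtered alike is not known. The TruSeq columns carry an index and stand for their group, which follows the sample titles. The planned comparison of induced with uninduced MEFs was not made, because the column codes are not explained. Between libraries of the same group, chi-square per degree of freedom ran from 21.9 to 794, beyond sampling noise, so none was counted as a duplicate. Pairs of MEFs by TEsR, the highest included, can join induced with uninduced libraries, so their values are not those of replicates alone.

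Tests used edgeR 4.0.16 in R 4.3.3 (robust quasi-likelihood, TMM scaling, rows kept by filterByExpr at a minimum count of 10) on 2 MES against 4 MEF libraries by TEsR or 2 by TruSeq, adjusted over all tested rows at a threshold of 0.05. Of the 273 and 352 tested rows, 210 and 306 had an unadjusted p under 0.05. CPM use library totals. Fold intervals are exact and cover counting error only. Row types come from GENCODE vM21. The fits were tested on simulated data. Alternatives were DESeq2 1.42.0, library size only, miRNA rows alone, no filter, duplicates once, each library left out, and all groups in one fit. Named RNAs were planned as the cluster's rows, at most 4 examples of each related list, and the 5 rows most like the cluster, beside marker lists of cell types. Further rows are named where a direction turned between settings, where a row was left out of a sum, or as next in likeness. The members and lists were chosen with earlier results of these data known. Shares have exact Clopper-Pearson 95% intervals, and a count of 0 has a limit of 3 counts.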

Additional observations from a re-analysis of the deposited data

Results flagged for a closer look

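Among the 4 MEF libraries by TEsR, MEFmmS2 stood apart from the others in the cluster. It had 3 counts of Mir292 and 2 of Mir295, so 5 for the cluster or 1.33 CPM, while the other 3 libraries had 0 of each. Of 21 values looked at, these 4 stood apart, and they are not independent, since the sum holds both hairpins. Chance marks about 1 in 20 groups of 4 in this way for values that vary smoothly. That rate does not hold near 0, where 1 library with any count among libraries at 0 always stands apart. The 2 hairpins are the 2 highest of the cluster per 100 bases in MES. By counts, Mir291a, with 284 and 245 in MES, stood about level with Mir295, at 267 and 257. It had 0 in MEFmmS2. MEFmmS2 also had the lowest share of miRNA counts of its group, at 1.52% of all counts. The part of that share in these values was not tested.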

How the results depend on the processing

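The adjusted p of the 7 hairpins, higher in MES, was at most 0.0125 over 12 alternatives against MEFs by TEsR and at most 0.0175 over 9 against MEFs by TruSeq. These rows enter each fit through their MES counts alone, so this is no measure of stability. Without MEFmmS2, the fitted log2 fold change of Mir292 was 12.95 and that of Mir295 11.85, against 10.45 and 9.82. With miRNA rows alone, 42 rows were called higher and 35 lower in MES against MEFs by TEsR, of 136 tested, and 51 and 34 against MEFs by TruSeq, of 103 tested; fewer rows enter that fit. Leaving out each library gave 103 to 121 rows higher and 59 to 97 lower against MEFs by TEsR, and 102 to 130 higher and 126 to 182 lower against MEFs by TruSeq. Over all rows the median log2 fold change was 0.45, and 0.32 with DESeq2 size factors and -0.38 with library size only, against MEFs by TEsR; against MEFs by TruSeq it was -1.06, -0.65 and -2.42. The cluster's mean share of miRNA counts in MES was 14.9% over all rows typed miRNA, 24.5% with duplicates summed and 19.4% without AC161199.1, against 18.2%. Of the related rows against MEFs by TEsR, with miRNA rows alone Mir92-1 turned to a log2 fold change of 0.23 (adjusted p = 0.684, against -1.76 and 0.0191), Mir19a to 1.22 (0.00664, against -0.78 and 0.132) and Mir18 to 1.30 (0.00343, against -0.73 and 0.179), and with library size only Mir17 turned to -0.26 (0.736, against 0.60 and 0.336); the cause was not tested. A further 17 values of related rows lost the threshold and 12 passed it, in the same direction. No paired analysis was possible because the MEF columns carry no replicate numbers from the labels. At these depths a MEF count of 0 allows up to 0.931 CPM in a library.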
